A study of Mus musculus with 3 samples.

Results

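Immunoglobulin variable segments are the gene pieces that code for the antigen-binding end of antibody chains. The array carried 17 of them under a single gene symbol, out of 22087 genes named in this way, and they fell into 3 heavy, 13 kappa light chain and 1 lambda light chain segments. The rule that picks them reads only the gene symbol, and for a segment with several probe sets the brightest one, by its mean over the arrays, was kept. The segments were measured in 3 samples, called samples 1, 2 and 3 after their titles, of live cells sorted from dissociated mouse tumours on Affymetrix arrays, which read biotin-labelled total RNA with groups of probes called probe sets. Every sample carried the genotype label Dicer1 +/- and passed the stroma gate, which kept cells negative for PECAM1, an endothelial surface protein, and for tdTomato, a red fluorescent protein. Strain, age, sex and treatment are not given in the labels, and the Dicer1 +/+ stroma named in the series title was not analysed here. The samples therefore form 1 group of 3, and no contrast between genotypes and no test was possible. Nothing in the labels ties the samples to separate animals, and each SD covers only the spread between these samples, which may in part be technical.

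Each B cell joins 1 variable segment to a short joining segment, and for heavy chains also to a diversity segment, by cutting and religating its DNA. The joined gene is then transcribed together with a constant region. A segment is read out in quantity only by B cells that chose it and by the plasma cells they give rise to, which secrete antibody and hold far more of the transcript. In the mouse the heavy segments lie in a cluster on chromosome 12, the kappa segments on chromosome 6 and the lambda segments on chromosome 16. Segments of 1 family arose by duplication and share much of their sequence, so a probe set named for a segment can also read its relatives.

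Levels are log2 intensities as the authors deposited them, so a difference of 1 is a 2-fold difference. A segment was called above background on an array when it exceeded the 95th percentile of 1438 probe sets on that array that read smell, pheromone and taste receptors (olfactory, vomeronasal and taste receptor genes), a background reference of 5.16 in sample 1, 5.11 in sample 2 and 5.20 in sample 3. Levels of different segments are not ranked against each other, since probes differ in brightness. The array medians were 5.35, 5.34 and 5.36. All 5 fibroblast, 5 macrophage and 5 neutrophil markers checked were above background on every array, as were 4 of 5 endothelial markers, among them Pecam1 (8.02, 7.20 and 8.25), although the gate was set against its protein. Sample 1 stood apart in Xist, the RNA of X chromosome inactivation, with 9.78 against 3.43 and 3.49, and in the Y-linked gene Kdm5d, with 3.67 against 7.03 and 7.50. Whether this difference bears on the segments was not tested.

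Antibody segments were read most strongly in sample 1. Of the 17 segments, 16 had their highest value in sample 1, where 34.6% of all 20658 named genes outside the receptor reference did, and all but Ighv1-54 were higher there than in sample 2. All 17 were higher in sample 1 than in sample 3. Over the 17 the median difference was 1.13 between samples 1 and 2 and 1.22 between samples 1 and 3, or 2.19-fold and 2.33-fold, while the median over all named genes was 0.00 in both. Sample 1 exceeded both others by more than 1 in 10 of the 17 segments, against 0.474% of all named genes (98 genes). The highest and lowest samples lay more than 1 apart in 11 segments, against 3.99% of all named genes, and more than 2 apart in 7, against 0.382%. With values below the reference raised to it, 9 segments had a span above 1 (3.28% of all named genes did) and 4 above 2 (0.266%). Each difference sets 1 array against 1 other and has no replicate check, and in bulk RNA fewer cells of a type and less RNA per cell cannot be told apart.

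**Figure D1:**
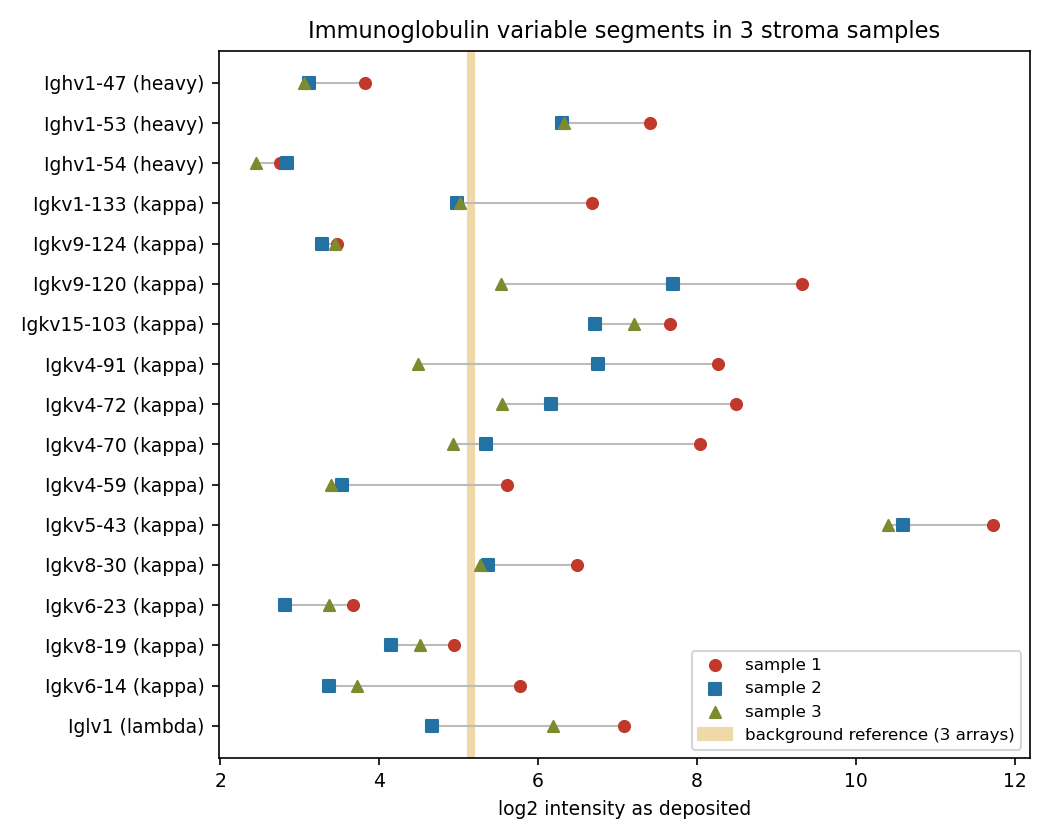
Log2 intensity (horizontal axis) of each of the 17 variable segments in samples 1 (circles), 2 (squares) and 3 (triangles), with the kappa segments in their order along the chromosome; the shaded band spans the background reference of the 3 arrays. Sample 1 is the rightmost point in 16 segments, and 5 segments lie left of the band in all samples.

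Not every segment was measurable. Of the 17 segments, 6 (35.3%) were above background on all 3 arrays, against 60.5% of all named genes, 6 on 1 or 2 arrays and 5 on none. Sample 1 had 12 segments above background, sample 2 had 8 and sample 3 had 7. The 6 segments that passed only on some arrays passed on sample 1 in each case, and their large differences follow in part from that. For the same reason the counts over the 12 segments above background on at least 1 array are given as a description only: all 12 were highest in sample 1 (33% of the 13636 such genes were) and 11 had a span above 1 (5.7%). The 6 segments above background everywhere do not have this limit. All 6 were highest in sample 1, against 33.4% of the 12508 genes above background on every array. In 5 of them the highest and lowest samples lay more than 1 apart, against 4.86% of those genes, and in the same 5 sample 1 exceeded both others by more than 1, against 0.424%.

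Among the 3 heavy segments, all of family Ighv1, Ighv1-53 alone was above background. It stood at 7.40 in sample 1, 6.30 in sample 2 and 6.32 in sample 3, and averaged 6.67 ± 0.63 (SD, n = 3). Sample 1 was high, and samples 2 and 3 lay within 0.028 of each other. Ighv1-47 was at 3.82, 3.12 and 3.05 and Ighv1-54 at 2.75, 2.84 and 2.45, below the reference on every array, so the order of their values carries little weight. The probe sets that name either of these segments together with a constant region were bright, as described further on, and a value below background does not show that the cells lacked the segment.

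Of the 13 kappa segments, 5 were above background on all arrays, 5 on some and 3 on none. All 13 had their highest value in sample 1. The lowest sample was divided, with 7 segments lowest in sample 3 (30.3% of all named genes were) and 6 in sample 2 (31.4%). Among those 6, only Igkv15-103 was above background in sample 2 or 3. The order of samples 2 and 3 in the others carries little weight, and the same holds for Igkv4-59 among the 7. Over the 13 segments the median difference was 1.51 between samples 1 and 2 and 1.66 between samples 1 and 3, or 2.85-fold and 3.15-fold.

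In the probe sets kept, the widest differences were in Igkv9-120 and Igkv4-91, where the values fell from sample 1 through sample 2 to sample 3. Igkv9-120 was at 9.32 in sample 1, 7.70 in sample 2 and 5.53 in sample 3, a span of 3.79 (13.8-fold), and averaged 7.52 ± 1.90 (SD, n = 3). Igkv4-91 was at 8.26, 6.75 and 4.49, the last below background, a span of 3.77. With values below the reference raised to it, the span of Igkv4-91 was 3.07, or 8.38-fold. In these 2 segments sample 2 exceeded sample 3 by 2.17 and 2.26, whereas the largest difference between samples 2 and 3 in any other kappa segment was 0.61, in the probe set used.

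The other members of family Igkv4 differed mainly between sample 1 and the rest. Igkv4-72 was at 8.49, 6.16 and 5.55, above background throughout, with a span of 2.94 (7.69-fold). Igkv4-70 was at 8.04, 5.34 and 4.93, and its span of 3.11 was 2.84 with the low value raised to the reference. Igkv4-59 was at 5.61, 3.53 and 3.39, above background in sample 1 only, by 0.45. Its span of 2.22 fell to 0.50 with the low values raised to the reference. All 4 members of this family had the order sample 1, sample 2, sample 3. In Igkv4-59 samples 2 and 3 were both below background, so their order there carries little weight.

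Another 3 kappa segments were above background on every array and differed less. Igkv5-43 was at 11.73, 10.60 and 10.40 in the probe set chosen, a span of 1.33 (2.51-fold). Igkv8-30 was at 6.49, 5.37 and 5.27, a span of 1.22, and its values in samples 2 and 3 lay only 0.26 and 0.077 above the reference. Igkv15-103 was at 7.66, 6.71 and 7.21, and its span of 0.95 was the smallest among the segments above background throughout. In Igkv15-103 sample 3 exceeded sample 2 by 0.50, the reverse of Igkv4-91, Igkv4-72 and Igkv4-70.

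Of the remaining kappa segments, Igkv1-133 and Igkv6-14 were above background in sample 1 only. Igkv1-133 was at 6.67, 4.98 and 5.02, the last 2 just under the reference. Igkv6-14 was at 5.78, 3.37 and 3.72, and its span of 2.41 was 0.66 with the low values raised to the reference. Igkv9-124 (3.47, 3.28 and 3.44), Igkv6-23 (3.67, 2.81 and 3.37) and Igkv8-19 (4.94, 4.15 and 4.51) were below background in every sample, with spans of 0.19 to 0.86.

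The lambda locus was represented by Iglv1, which was at 7.09 in sample 1, 4.66 in sample 2 and 6.18 in sample 3, and averaged 5.98 ± 1.23 (SD, n = 3). Its lowest sample was sample 2, as in 6 of the 13 kappa segments. Only Igkv15-103 of those 6 was above background in sample 2 or 3. In Iglv1 sample 3 exceeded sample 2 by 1.52, where the largest such excess in a kappa segment was 0.57. Sample 2 was below the background reference, and with it raised to the reference the span of 2.42 was 1.97 (3.92-fold). Together with Igkv9-120 and Igkv4-91 it was 1 of 3 segments in which samples 2 and 3 differed by more than 1, against 2.37% of all named genes. In 12 of the 17 segments samples 2 and 3 lay within 0.5 of each other, against 87.5% of all named genes.

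**Figure D2:**
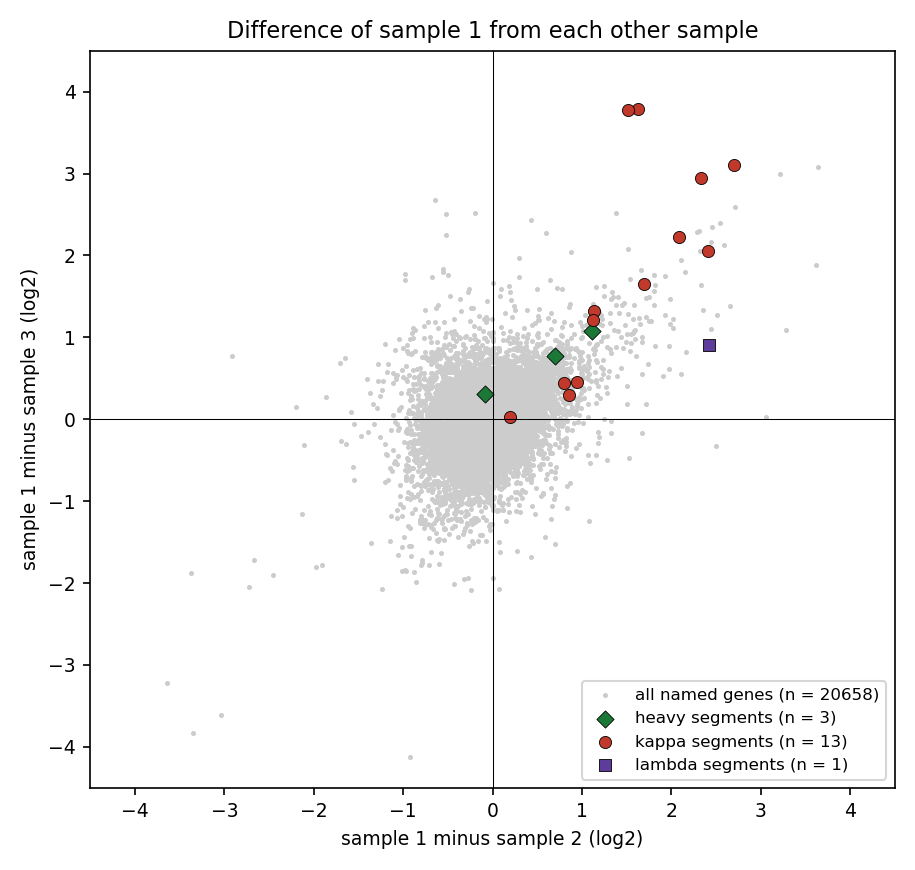
Log2 difference of sample 1 from sample 2 (horizontal axis) and from sample 3 (vertical axis) for 20658 named genes in grey, of which 4 lie outside the axes, with heavy segments as diamonds, kappa segments as circles and the lambda segment as a square. Igkv9-120 and Igkv4-91 stand at the top, with differences from sample 3 of 3.79 and 3.77, and Iglv1 stands low on the right, at 2.42 and 0.90.

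The choice of probe set mattered for Igkv5-43, which had 3 probe sets, while each of the others had 1. The brightest, used above, had the smallest span. The second was at 9.80 in sample 1, 5.93 in sample 2 and 3.65 in sample 3, a span of 6.15 in the same order of samples as Igkv9-120. The third was at 7.38, 3.57 and 3.68, a span of 3.81 with samples 2 and 3 alike and below background. All 3 were highest in sample 1, but they disagreed on the size of the difference and on samples 2 and 3, and whether each reads this segment alone was not tested.

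The annotation joins some segments with other genes on 1 probe set, whose value cannot then be given to any of them alone. Variable segments appeared on 5 such probe sets, and 3 segments, Ighv1-72, Igkv1-135 and Igkv4-53, were found only there. All 5 were above background on every array and highest in sample 1, with spans of 0.74 to 1.73. The probe set of Igkv9-124 and Igkv4-70 was at 12.31, 10.58 and 10.80, while the probe set of Igkv9-124 alone was at background. The probe set of Igkv4-53, Igkv6-23 and the joining segment Igkj1 was at 12.35, 11.22 and 11.73, while that of Igkv6-23 alone was at background. On the heavy side the probe set of Ighg3, Ighv1-47 and Ighm was at 11.53, 9.90 and 10.11, that of Ighv1-54, Igkv1-135 and Ighm at 10.47, 9.73 and 9.87, and that of Ighv1-72 and Ighm at 9.51, 8.50 and 8.49. The second of these joins a heavy and a kappa segment, which lie on different chromosomes. How much of the signal on such a probe set came from each named gene was not tested.

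**Figure D3:**
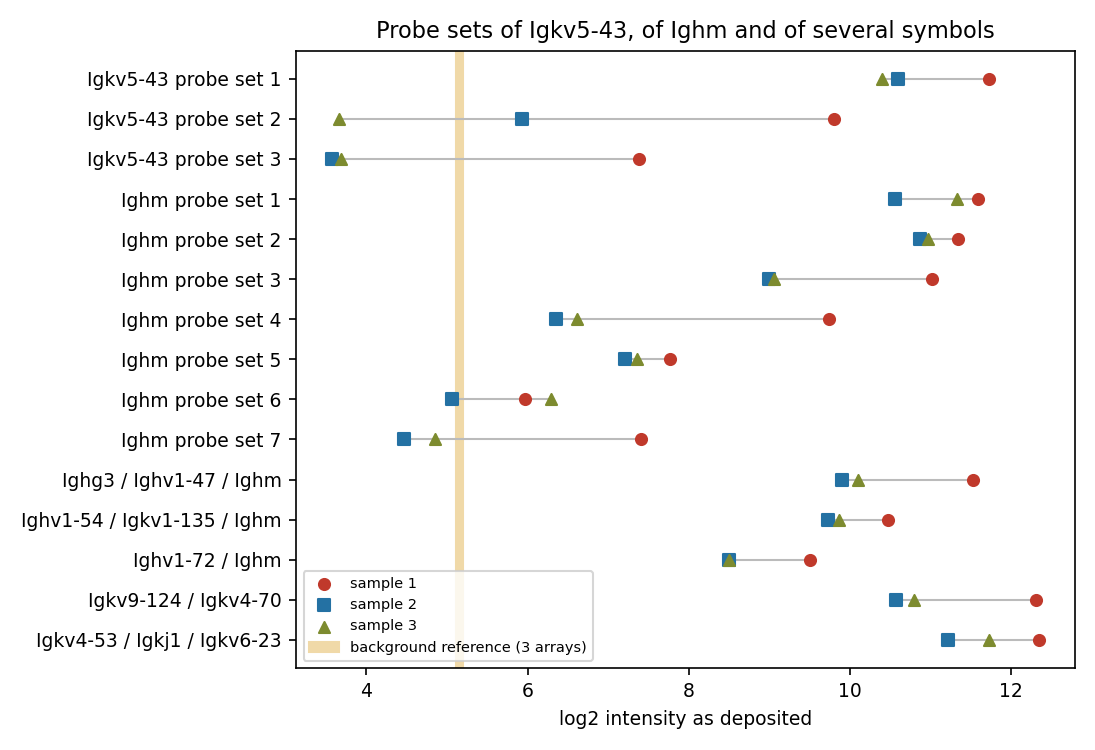
Log2 intensity (horizontal axis) in samples 1, 2 and 3 of the 3 probe sets of Igkv5-43, the 7 probe sets named for Ighm alone and the 5 probe sets that name several genes, numbered within a gene by mean level; the shaded band spans the background reference. Sample 1 is the rightmost point in all of them but Ighm probe set 6, where sample 3 is, and spans run from 0.48 to 6.15.

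Neighbours in the kappa cluster could be compared in few pairs. The mouse gene table of assembly GRCm38.p6 lists 162 kappa segments, 102 of them typed as variable segments and 60 as variable segment pseudogenes. The 13 measured ones are thus a sparse sample. None of the 17 segments measured is typed as a pseudogene. Igkv4-72 and Igkv4-70, of 1 family, have 2 segments between them, and samples 1 and 2, where both were above background, differed by 2.33 and 2.70. Igkv9-120 and Igkv15-103 follow each other among the measured segments, with 18 between, and were above background in every sample. Samples 1 and 3 differed by 3.79 in the first and by 0.45 in the second, and samples 1 and 2 by 1.62 and 0.95. On samples 1 and 3 this was the widest gap, 3.34, of 9 pairs of consecutive segments above background on at least 1 array, with a median of 0.89. Igkv5-43 and Igkv8-30, with 13 between and of different families, were also above background in every sample. Samples 1 and 3 differed by 1.33 and 1.22 in them, and samples 1 and 2 by 1.13 and 1.12. No sequence of the segments was compared here.

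Other antibody genes also read highest in sample 1 in most probe sets. Constant regions, the part of the chain that sets its class, were represented by Ighm and Ighg3, 2 of the 13 listed. Ighm, the mu heavy chain of IgM, was at 11.59, 10.56 and 11.33 in its brightest probe set and Ighg3, of an IgG class, at 6.0, 4.92 and 5.63. Sample 1 held the highest value of both and sample 2 the lowest, as for Iglv1. The sample 2 value of Ighg3 was below background, and its other probe set was below background on every array. The 7 probe sets named for Ighm had spans of 0.48 to 3.39, and 6 of them were highest in sample 1. The fourth by mean level was at 9.74, 6.35 and 6.62, while the second was at 11.35, 10.87 and 10.97. The joining segment Igkj1 was at 6.63, 5.52 and 5.27. The probe set Igh-VS107, named for a heavy chain segment under an older symbol and singled out after its values were seen, was at 10.17, 8.18 and 9.01 in the brighter of its 2 probe sets.

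B lineage genes, which mark B cells at large, were nearly all highest in sample 1 as well. Of 14 measured B lineage genes 13 were highest there, against 34.6% of all named genes, and 8 had a span above 1, against 3.99%. The median difference was 0.95 from sample 2 and 1.11 from sample 3, beside 1.51 and 1.66 for the kappa segments. Ms4a1, which encodes CD20, was at 9.05, 6.34 and 6.45, and Cd22, an inhibitory receptor of B cells, at 8.51, 6.58 and 6.77. The signalling chains of the B cell receptor differed less, with Cd79a at 9.48, 8.57 and 8.44 and Cd79b at 10.40, 9.67 and 9.53. Samples 2 and 3 lay within 0.5 of each other in 13 of the 14 genes, a share near the 87.5% of all named genes.

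Plasma cell genes were mixed. Jchain, which links IgM and IgA into polymers, was at 8.69, 5.07 and 6.81, the same order as Iglv1, with sample 2 just below background. Mzb1, a chaperone of antibody assembly, was at 8.30, 6.55 and 6.81. Sdc1, the plasma cell surface marker CD138, was at 7.08, 7.08 and 6.77, and Prdm1, a factor that drives plasma cell differentiation, at 6.83, 6.57 and 7.12. Of 13 measured genes of this list 9 were highest in sample 1, against 34.6% of all named genes. Among the 12 above background on at least 1 array 8 were. Jchain and Mzb1 were the 2 with a span above 1, against 3.99% of all named genes. Genes of antibody gene recombination and of the pre-B receptor had no span above 1 among 6 measured. Since only 3.99% of all named genes did, this absence says little. Sample 1 was highest in 4 of the 6, against 34.6% of all named genes. Rag2, a subunit of the recombinase, was at 5.55, 5.03 and 4.79, above background in sample 1 only. Dntt, which adds bases at the joints, was at 7.39, 6.88 and 6.70. The surrogate light chain gene Vpreb2 was at 6.12, 6.52 and 6.46, while Vpreb1 was below background. Among 5 germinal centre genes, those of the sites where B cells mutate their segments, Mybl1 was highest in sample 1 and Ung was tied between samples 1 and 2, at 5.34. Bcl6, their defining factor, was at 9.16, 9.34 and 9.75, and Gcsam at 4.63, 3.77 and 5.41, above background in sample 3 only. S1pr2 was at 7.32, 7.36 and 7.29 and Mybl1 at 5.74, 5.23 and 5.51.

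T cell genes were highest in sample 1 too. The variable segments of the T cell receptor are built by the same recombination. All 8 measured were highest in sample 1 (34.6% of all named genes were), with 6 lowest in sample 2 (31.4%). Their median difference was 1.53 from sample 2 and 0.82 from sample 3, beside 1.51 and 1.66 in the kappa segments. Trav12-2 was at 7.66, 5.76 and 7.13 and Trav7-4 at 7.21, 6.64 and 7.04, whereas Trav14d-3-dv8 (5.27, 4.11 and 4.80) was above background in sample 1 only and Trav3-4 (4.92, 2.38 and 2.52) in none. The T cell markers Cd3d (8.06, 5.89 and 7.23), Cd3e (8.59, 6.49 and 8.04), Cd3g (8.42, 5.14 and 7.33) and Cd4 (7.27, 6.47 and 6.52) had the same highest and lowest samples. All 5 T cell markers were above background on every array and lowest in sample 2. Of the kappa segments 6 of 13 were lowest there, but only Igkv15-103 of those 6 was above background in sample 2 or 3. The 2 counts are therefore not alike.

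Markers of fibroblasts, neutrophils, macrophages and endothelial cells were mostly not highest in sample 1, as most named genes were not. Lists of 5 markers are too short to set their counts apart from the 34.6% of all named genes highest there. All 5 fibroblast markers were highest in sample 2 (6791 of 20658 named genes were), with a median difference of sample 1 from sample 2 of -0.33. All 5 were higher in sample 1 than in sample 3, with a median difference of 0.58. Neutrophil markers had medians of -0.42 and -1.21 for sample 1 minus samples 2 and 3, and macrophage markers -0.09 and 0.81. Sample 1 held the highest value of 1 of 5 neutrophil and 2 of 5 macrophage markers, against 34.6% of all named genes. Of the 5 endothelial markers none was highest in sample 1, beside the same 34.6%. The part of cell composition in the differences between the samples was not tested.

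**Figure D4:**
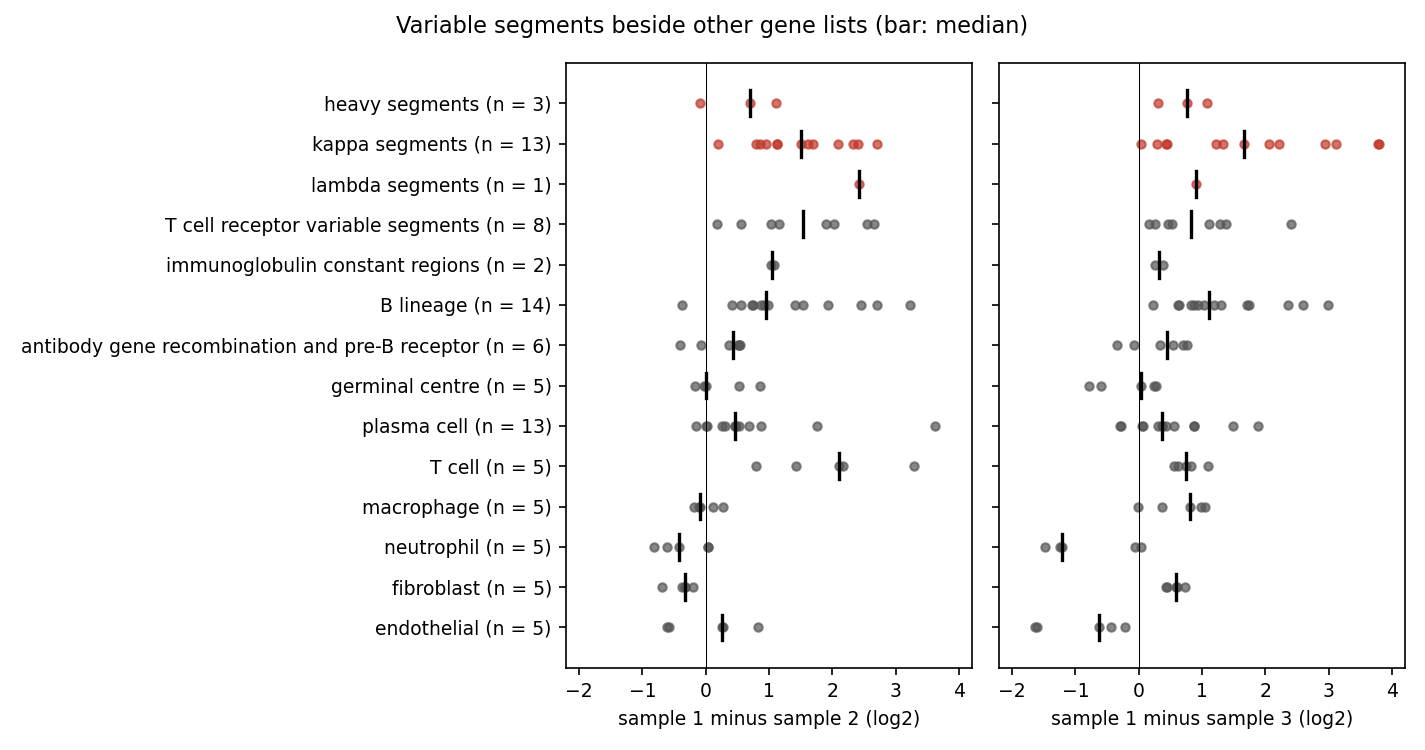
Log2 difference of sample 1 from sample 2 (left) and from sample 3 (right) for each measured gene of the variable segments (red) and of the other lists (grey), with a bar at each list's median; dots are genes, not replicates. The kappa median is 1.51 on the left and 1.66 on the right, while the fibroblast median is -0.33 and 0.58.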

How the data were processed

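The authors deposited log2 intensities, with 1 value for each probe set on each array. The submitters' processing notes name Partek, without version or role. Background correction, normalization and summarization are not stated in the sources used here, and the log2 scale was read from the values. GEO's platform annotation assigned 1 symbol to 23094 of 31873 probe sets and several to 1764, and 7015 are unnamed here. All 17 segments matched the RefSeq gene table of GRCm38.p6 by gene identifier. That table was used for gene type, chromosome and order, and no coordinates are printed because no build is named for the array. None of the segments had equal values in any pair of samples.

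Counts, spans (highest minus lowest sample) and medians were computed in Python 3.11.15 with pandas 2.3.3. The call of a span above 1 was checked on simulated arrays, and the medians were not. The genes raised in those arrays all had means above background and a fixed rise. The check therefore does not cover differences in segments near or below background. Precision is limited by the number of arrays. All segments are named. From the B cell, plasma cell, recombination, germinal centre and T cell lists the text names the first 4 measured genes, and from the constant regions every measured one. Pecam1, Ung, Igkj1 and Igh-VS107 were named beyond this, and the other marker lists are only summarised. Members and lists were chosen with earlier results of these data known. Alternatives changed the reference, the filter, the normalization, the probe set and the size threshold, and left out each sample. Raising low values to the reference was an alternative added after seeing the data.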

Additional observations from a re-analysis of the deposited data

How the results depend on the processing

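Quantile normalization and centring on the receptor probe sets were applied to the counts with a span above 1 and highest in sample 1. Neither count changed by more than 1.5 times, and no segment's span moved by more than its SD. The count of segments above background on every array was not recomputed under them. The count of segments above background on every array depended on the reference: 8 kappa segments and 1 lambda segment passed at the 90th percentile, and 2 kappa and 0 heavy segments at the 99th, from 5, 0 and 1. Among segments above background on at least 1 array, 9 of 10 kappa segments had a span above 1 (5.7% of all such genes did). Of these 10, Igkv1-133, Igkv4-59 and Igkv6-14 passed on sample 1 only. With values below the reference raised to it, 7 of all 13 kappa segments had a span above 1, against 3.28% of all named genes. Of the 5 above background on all 3 arrays, 4 had a span above 1 (4.86% of such genes did). All 5 were highest in sample 1 (33.4%). Without a filter 2 of 3 heavy segments were highest in sample 1. No heavy segment (0) had a span above 2.

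With values below the reference raised to it, the span of the kappa sample medians was 1.40. Leaving out each sample in turn gave 2 of 7 to 9 of 10 kappa segments, 0 to 1 heavy and 0 to 1 lambda segments with a span above 1. These counts cover only segments above background on at least 1 array used, and those with sample 1 include segments that passed on sample 1 only. Samples 2 and 3 differed by more than 1 in 2.37% of all named genes, without that filter. The shares without sample 2 and without sample 3 were not computed. The lowest counts came without sample 1 for kappa and heavy segments and without sample 2 for the lambda segment, which was then above background on both other arrays (0 to 1). The span of the sample medians ran from 0.41 to 2.14 in kappa, 0.028 to 1.11 in heavy and 0.90 to 2.42 in lambda segments. With all samples it was 2.14, 1.11 and 2.42. These values cover only segments above background on at least 1 array used. For kappa these were 10 segments with all samples and 7 without sample 1, and for heavy and lambda 1 each. Over all 13 kappa segments the span was 1.66, and over the 5 above background on every array it was 1.33. Without sample 1, Igkv4-91, Igkv9-120 and Iglv1 kept spans of 2.26, 2.17 and 1.52. With the dimmest probe set of Igkv5-43 its span was 3.81 in place of 1.33. Leaving out pseudogenes removed no segment. No paired analysis was possible because the labels give 1 group.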
